A study of Rattus norvegicus with 12 samples.

Results

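The genes described here carry fatty acids into heart muscle cells, burn them in mitochondria or keep them in lipid droplets. A list of 39 rat gene symbols was matched to the symbol column of a raw count table of 32883 genes, and a gene was kept when it had 10 or more counts in 3 or more libraries. This left 34 genes. No row matched Cd36, a fatty acid transporter, which is not analysed here. The other 4 listed genes were under the count rule: Slc27a6, Echs1, Ucp3 and Pnpla2. Of the 34 genes kept, Acot1 reached 10 counts in 9 libraries and each of the others in all 12, so the rule did not depend on 1 group being high.

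Newborn rat ventricular cardiomyocytes in primary culture gave poly(A) RNA for sequencing, 2 days after an adenovirus had delivered its cargo. The cargo was LacZ, a bacterial gene used as control, or human KAT6A, a lysine acetyltransferase that acts on histones. KAT6A came as the wild-type protein (WT), as the acetylation-resistant mutant K815R or as the acetylation-mimetic mutant K815Q, which put arginine or glutamine in place of a lysine. Each of the 4 groups had 3 libraries, all groups received virus, and the series links KAT6A acetylation to the energy sensor AMPK and to mitochondrial metabolism. The rat cells kept their own Kat6a gene in every group. The labels do not say whether libraries of a group came from separate cultures or litters, so p-values measure only the spread between these libraries.

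A beating heart takes most of its energy from long-chain fatty acids, and the newborn heart shifts toward this fuel after birth. Lipases free fatty acids at the vessel wall, binding proteins and acyl-CoA synthetases trap them in the cell, and the carnitine shuttle moves them into mitochondria, where malonyl-CoA blocks the first step. AMPK lowers malonyl-CoA by phosphorylating acetyl-CoA carboxylase, and the nuclear receptors PPAR and ERR with the coactivator PGC-1 alpha control transcription of many of these genes.

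Each library held 19102048 to 25451686 reads counted in genes, and no 2 libraries of a group agreed within sampling noise. Levels are given as CPM, counts scaled by TMM to a common library total. These are not divided by gene length, so levels are compared between groups; where a gene is said to draw the most reads of its role, that is a count and not a level per length. The row of Kat6a held 45.2 to 53.6 CPM in the LacZ libraries, 82.0 to 106 in WT and 101 to 122 in K815R. In the 3 libraries labelled K815Q it held 43.4 to 49.97 CPM, within the LacZ range or just below it, so this row does not show the labelled cargo there. Whether reads of human KAT6A are counted in the rat row was not tested. They are therefore called the group labelled K815Q, or libraries with the K815Q label. Markers of cardiomyocytes were abundant in every library, with 8 of 8 detected and a summed level of 40200 to 45830 CPM. Fibroblast markers (8 of 8, 10970 to 12810 CPM) were present as well, so the cultures held other cells. Smooth muscle and pericyte markers (8 of 8) summed to 3960 to 4557 CPM, mostly from Des, which averaged 2907 CPM. Myh11 and Rgs5 of that list averaged 118 and 32.1 CPM, and which cells the sum came from was not tested. In bulk RNA, fewer cells of a type and less RNA per cell cannot be told apart.

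Messenger RNA of the 34 fatty acid genes, taken as a whole, stood at much the same level in all 4 groups. Their summed level was 5721 ± 130 CPM (SD, n = 3) in LacZ, 5762 ± 117 in WT, 5764 ± 182 in K815R and 5801 ± 194 with the K815Q label. The single libraries ran from 5554 to 5997 CPM, and every pair of groups overlapped. Prkaa2, which encodes the alpha 2 catalytic subunit of AMPK, behaved otherwise in the same libraries. It held 55.4, 54.8 and 72.7 CPM in LacZ, 488, 435 and 633 in WT, 78.1, 95.4 and 88.1 with K815R, and 1232, 1134 and 1139 with the K815Q label. The WT libraries and those labelled K815Q thus lay far above LacZ, by 3.09 and 4.26 on the log2 scale (adjusted p = 2.51e-05 and 4.06e-06, edgeR's quasi-likelihood test, adjusted by Benjamini-Hochberg over 14063 genes). The fold change of every fatty acid gene below comes from the same fit.

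**Figure D1:**
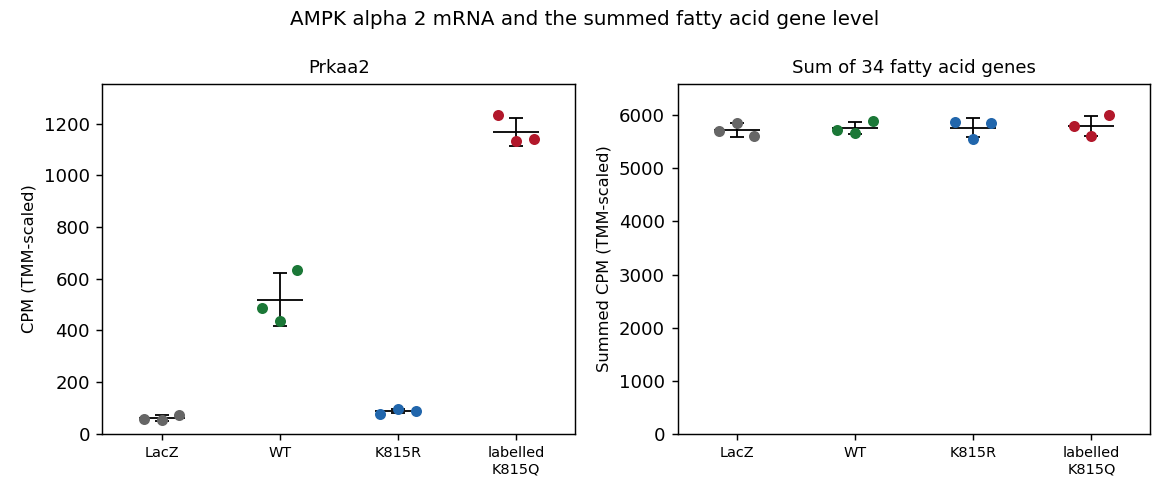
Level of Prkaa2 (left) and summed level of the 34 fatty acid genes (right), in TMM-scaled CPM, for 3 libraries (points) in each of 4 groups, with bars for mean and SD. Prkaa2 averages 60.9 CPM in LacZ and 1168 with the K815Q label, while the sum stays between 5554 and 5997 in all 12 libraries.

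Calls were made where the adjusted p was under 0.05. Of the 204 tests on these genes (34 genes in 6 pairwise comparisons), 3 gave a call, and 31 of the 34 genes were called in no comparison. WT against LacZ called 1 gene, Acsl4, which was lower, where 5.34% of all genes tested were called. K815R against LacZ also called 1, Hadh, which was lower, where 2.47% of all genes were called. The libraries labelled K815Q against LacZ called 1, Angptl4, which was lower, where 7.85% of all genes were called. One gene of 34 is a share of the same order as these backgrounds. These 3 comparisons share the LacZ libraries.

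Between the KAT6A groups, edgeR's quasi-likelihood test called 0 of the 34 genes, and so did DESeq2. Of all genes tested, 2.2% were called in K815R against WT, 1.07% in the libraries labelled K815Q against WT and 0.363% in K815R against the group labelled K815Q. At an unadjusted p under 0.05 these comparisons held 3, 1 and 2 of the 34 genes (8.82%, 2.94% and 5.88%), beside 13.8%, 14.4% and 11.4% of all genes tested. Asked over the 4 groups at once, the test called 1 gene, Hadh (adjusted p = 0.0303), where 8.13% of all genes were called.

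Differences were small as well as uncalled. Over the 34 genes, the median size of the log2 fold change, sign ignored, was 0.08 for WT against LacZ, beside 0.10 over all genes tested. It was 0.05 beside 0.08 for K815R, and 0.08 beside 0.12 for the group labelled K815Q. Signed medians were 0.01, 0.00037 and 0.03, with 17, 17 and 20 of the 34 genes higher than in LacZ. For 27 of the 34 genes the 95% interval of the difference lay within 1.25-fold in all 3 comparisons with LacZ. The 7 genes outside that bound were Angptl4, Fabp4, Acsl4, Acot1, Hadh, Plin5 and Lipe. For 30 genes the interval lay within 1.5-fold in all 6 comparisons. Such bounds say more than a missed threshold, and Angptl4, Fabp4, Acot1 and Plin5 are the genes to which the wider one does not apply.

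**Figure D2:**
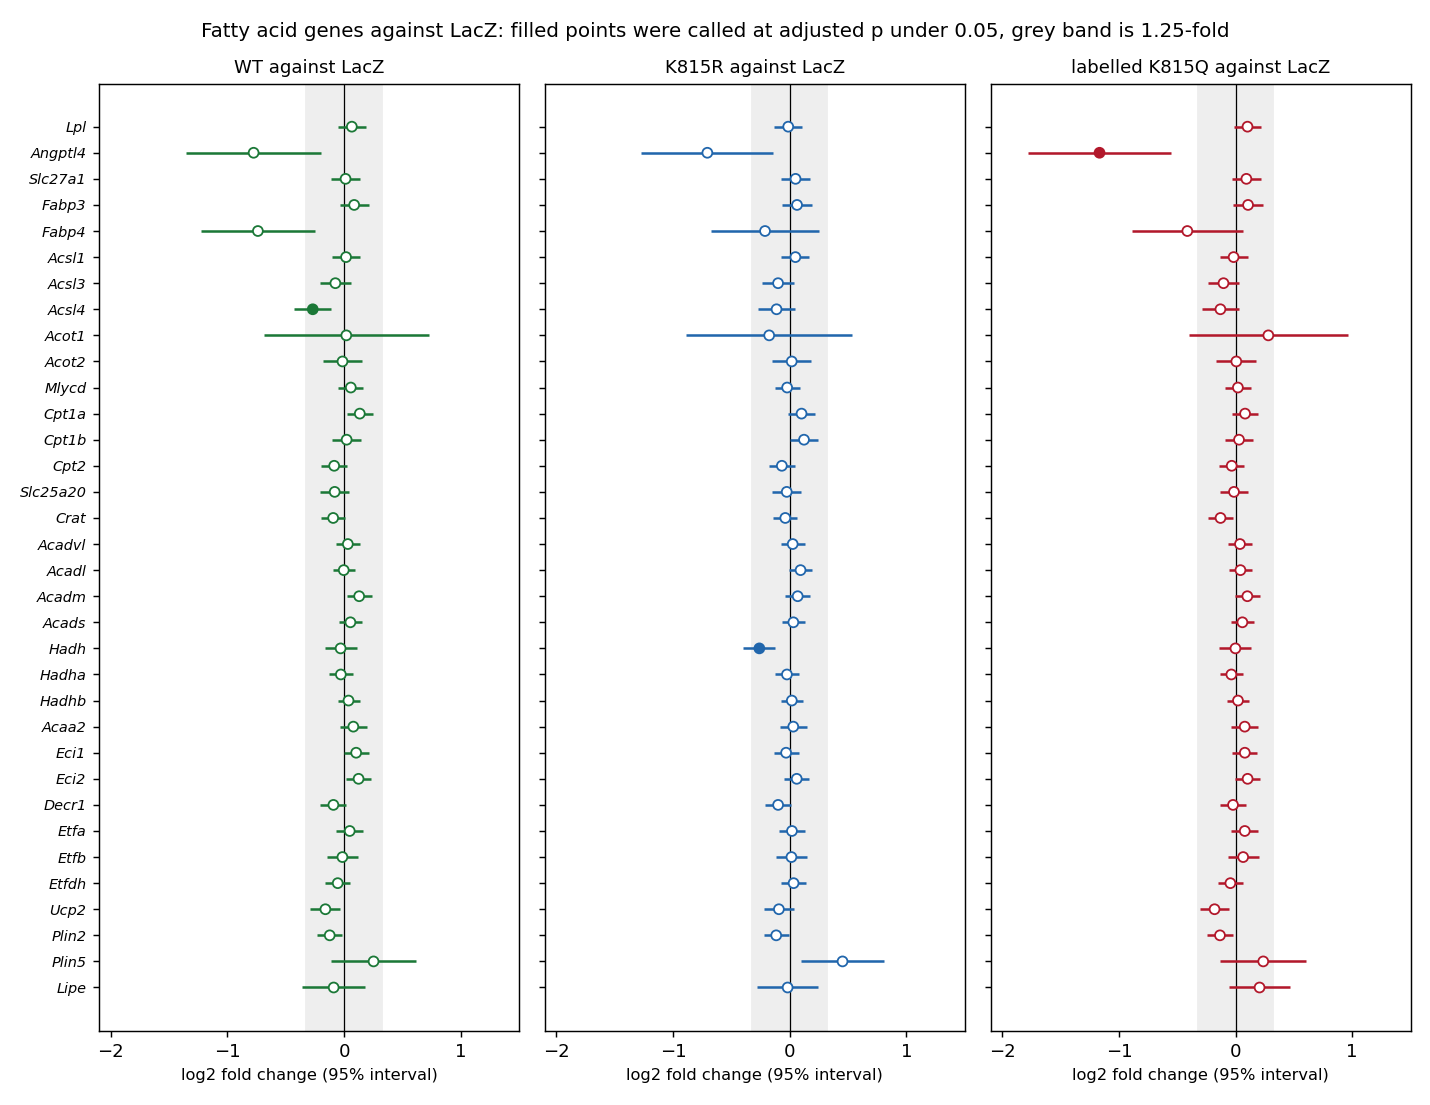
Log2 fold change against LacZ (x axis, with 95% interval) of each of the 34 genes (y axis, ordered by role) for WT, K815R and the group labelled K815Q. Filled points mark the 3 calls (Acsl4, Hadh and Angptl4), and 27 genes keep their interval inside the grey band of 1.25-fold in all 3 panels.

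The promoters of the 3 called genes are shown first, because they are the genes that a reader would look at next, together with that of Hadhb, which shares its upstream stretch with Hadha. Each sequence is the 250 bases before the gene's start in the RefSeq promoter table of build GRCr8, 5′ to 3′ on the gene's strand. The build named in the submitters' processing notes is another one, Rnor_6.0, and the counts are joined to these sequences by symbol alone. Capitals mark GGGCGG, the GC box bound by Sp1, on either strand, and in Angptl4 also TATAAA.

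Angptl4 (chr7:15258682-15258931, minus strand): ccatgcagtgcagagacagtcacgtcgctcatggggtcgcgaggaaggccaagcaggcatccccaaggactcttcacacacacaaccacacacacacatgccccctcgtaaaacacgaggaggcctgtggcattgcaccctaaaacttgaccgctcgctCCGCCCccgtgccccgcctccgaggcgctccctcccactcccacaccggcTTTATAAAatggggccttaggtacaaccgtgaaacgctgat
Acsl4 (chrX:110803262-110803511, minus strand): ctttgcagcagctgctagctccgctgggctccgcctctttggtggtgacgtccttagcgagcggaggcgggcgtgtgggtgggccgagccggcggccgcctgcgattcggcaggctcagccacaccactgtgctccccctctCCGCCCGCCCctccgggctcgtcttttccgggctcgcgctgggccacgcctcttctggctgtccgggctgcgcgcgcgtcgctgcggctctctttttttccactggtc
Hadh (chr2:222504447-222504696, minus strand): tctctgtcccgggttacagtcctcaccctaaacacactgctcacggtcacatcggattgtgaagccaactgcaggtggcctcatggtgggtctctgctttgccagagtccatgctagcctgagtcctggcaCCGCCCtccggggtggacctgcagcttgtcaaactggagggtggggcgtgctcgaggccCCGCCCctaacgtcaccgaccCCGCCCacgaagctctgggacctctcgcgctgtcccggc
Hadhb (chr6:31907501-31907750, minus strand): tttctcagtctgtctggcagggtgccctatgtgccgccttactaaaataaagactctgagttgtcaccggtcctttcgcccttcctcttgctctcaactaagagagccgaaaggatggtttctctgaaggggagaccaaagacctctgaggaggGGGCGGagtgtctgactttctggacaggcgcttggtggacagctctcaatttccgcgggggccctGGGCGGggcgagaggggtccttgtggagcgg

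Of the 34 genes, 27 had a promoter in the table. GGGCGG on either strand was in 17 of the 27 (63%), beside 30.5% of all 33469 promoters of the same length. The 27 genes had passed the count rule and that background had not, so the shares are not matched for expression. Hadh held 3 matches, Acsl4 had 2 that overlap, Hadhb had 2 and Angptl4 had 1. TATAAA was in 1 of the 27, Angptl4, beside 12.9% of all promoters, where matches on both strands overlap. The nuclear receptor half-site AGGTCA was in 4 of the 27 (14.8%, beside 14.1%), in Acadvl, Eci1, Plin5 and Slc27a1. TCAAGGTCA, the longer site of ERR, was in 0 of the 27, beside 0.388% of all. The direct repeat of PPAR with RXR, AGGTCA repeated in the same orientation after 1 base of any kind, was in 0 as well, beside 0.0508%. Both contain the half-site, and these letters are only searched in this window. Hadhb and Hadha start 301 bases apart on opposite strands in that table, so the Hadhb sequence lies between the 2 genes.

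Uptake and binding was the role with the widest spread, from a log2 fold change of -1.17 to 0.53 over the 6 comparisons, and 1 of its 5 genes was called. Lpl encodes lipoprotein lipase, which frees fatty acids from circulating triglyceride, and Angptl4 encodes a secreted inhibitor of that enzyme that PPARs induce. Angptl4 held 4.90, 9.45 and 3.98 CPM in LacZ, 3.55, 3.57 and 3.52 in WT, 3.40, 4.02 and 3.68 with K815R, and 2.495, 2.79 and 2.81 with the K815Q label. All 3 libraries labelled K815Q lay below every other library, and LacZ replicate 2 stood well above the rest. From LacZ to the group labelled K815Q, Angptl4 fell by 1.17 on the log2 scale (SE 0.279, adjusted p = 0.0291, edgeR's quasi-likelihood test). Without LacZ replicate 2 it fell by 0.71 and was still called (adjusted p = 0.0117). It was not called without any 1 of the 3 libraries labelled K815Q, nor in a model of just those 6 libraries (adjusted p = 0.147).

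Against LacZ, Angptl4 also had lower values in WT (log2 fold change -0.78, adjusted p = 0.128) and in K815R (-0.71, adjusted p = 0.227), and edgeR's quasi-likelihood test called neither. DESeq2 called the first (adjusted p = 0.0265) and not the second (0.0791). Without LacZ replicate 2 the values shrank to -0.33 and -0.26, and without LacZ replicate 3 both were called (adjusted p = 0.0067 and 0.0197). The gene had 48 to 212 counts a library. K815R against the group labelled K815Q gave 0.46 (adjusted p = 0.615), although those 6 libraries did not overlap.

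Lpl itself showed none of this. It held 348, 368 and 391 CPM in LacZ, 382, 407 and 371 in WT, 391, 349 and 357 with K815R, and 404, 413 and 372 with the K815Q label, with all groups overlapping. Slc27a1, a fatty acid transport protein of the plasma membrane, stayed between 39.7 and 45.5 CPM. Fabp3, the heart form of the cytosolic fatty acid binding proteins, drew the most reads of the role. It averaged 932 ± 44.0 CPM (SD, n = 3) in LacZ, 990 ± 8.96 in WT, 973 ± 78.5 in K815R and 1004 ± 68.7 with the K815Q label. The 3 WT libraries lay above all LacZ libraries, but the difference was 0.09 on the log2 scale (adjusted p = 0.476).

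Fabp4, the binding protein of adipocytes, macrophages and capillary endothelium, held 17.1, 15.9 and 15.4 CPM in LacZ and 8.98, 11.2 and 8.93 in WT. It held 14.4, 16.0 and 11.3 in K815R and 10.8, 16.8 and 8.70 with the K815Q label. WT and LacZ did not overlap. K815R lay above all WT libraries and overlapped LacZ, while the group labelled K815Q spread across the gap. WT against LacZ gave -0.74 on the log2 scale (SE 0.219, 95% interval -1.23 to -0.25), which edgeR's quasi-likelihood test did not call (adjusted p = 0.0927). DESeq2 called it (0.0401), as did a model of just those 6 libraries (0.000191). K815R against WT gave 0.53 (95% interval 0.03 to 1.03), the largest rise of the role, not called by edgeR's quasi-likelihood test (adjusted p = 0.335). Of 8 adipocyte markers, Adipoq, Plin1, Lep and Retn were at 3 counts or fewer in every library, and the summed level was 54.3 to 59.5 CPM in LacZ and 56.8 to 67.1 in WT, nearly all from Car3. The summed level of 8 macrophage markers was 69.2 to 89.8 CPM in LacZ and 88.8 to 95.1 in WT, and that of 7 endothelial markers was 317 to 355 and 308 to 369. Neither moved down with Fabp4 in WT, and their part in its level was not tested.

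Activation and thioesters came next, with 1 of 5 genes called. Acyl-CoA synthetases attach coenzyme A to the fatty acid, and Acsl4 prefers arachidonic acid and other polyunsaturated chains. Acsl4 held 53.9, 59.99 and 63.0 CPM in LacZ, 54.8, 47.7 and 44.4 in WT, 56.5, 51.0 and 56.2 with K815R, and 57.5, 54.1 and 50.02 with the K815Q label. LacZ replicate 1 was lower than WT replicate 1, so the groups overlapped at that point. From LacZ to WT, Acsl4 fell by 0.27 on the log2 scale (SE 0.0761, adjusted p = 0.0433, edgeR's quasi-likelihood test). The call was lost without LacZ replicate 2 or 3 or WT replicate 2 or 3, where the values ran from -0.26 to -0.20, and in a model of just those 6 libraries (adjusted p = 0.0608).

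Acsl1, the main synthetase of heart muscle, drew the most reads of the role and held 254 ± 15.4 CPM (SD, n = 3) in LacZ, 257 ± 9.54 in WT, 263 ± 15.0 in K815R and 251 ± 16.6 with the K815Q label. Acsl3, which serves lipid droplets, stayed between 48.0 and 57.8 CPM. Its libraries labelled K815R or K815Q lay below all LacZ libraries, with log2 fold changes that were not called. The thioesterases Acot1 and Acot2 release free fatty acids from acyl-CoA. Acot2 ran from 13.8 to 16.7 CPM. Acot1 had 7 to 14 counts a library, too few to bound it, and its -0.46 between K815R and the group labelled K815Q (adjusted p = 0.653) was the widest difference of the role. Acot1 and Acot2 are close copies, so reads shared by both would be left out or uncertain.

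The carnitine shuttle, which carries long-chain acyl groups across the inner mitochondrial membrane, was the most uniform of the larger roles. All 36 differences of its 6 genes lay between -0.13 and 0.14 on the log2 scale. EdgeR's quasi-likelihood test and DESeq2 called 0 of them, and 2 had an unadjusted p under 0.05. Cpt1b, the muscle form of the rate-limiting carnitine palmitoyltransferase and the target of malonyl-CoA, held 165, 187 and 160 CPM in LacZ and 175, 159 and 185 in WT. It held 185, 191 and 181 in K815R and 171, 174 and 176 with the K815Q label. Cpt1b in K815R exceeded LacZ by 0.12 (95% interval -0.00021 to 0.24, adjusted p = 0.363), with overlapping libraries.

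Cpt1a, the liver form that also prevails in the fetal heart, held 74.6, 77.5 and 78.3 CPM in LacZ and 81.9, 83.0 and 88.1 in WT. Those groups did not overlap, yet the difference of 0.14 was not called (adjusted p = 0.165). The ratio of Cpt1b to Cpt1a counts, a common index of cardiac maturation, was 2.22 ± 0.185 (SD, n = 3) in LacZ, 2.05 ± 0.116 in WT, 2.25 ± 0.0577 in K815R and 2.14 ± 0.101 with the K815Q label. Of 24 exact two-sided permutation tests on this and 3 other ratios, none can give a p under 0.1 with 3 libraries against 3, and the smallest adjusted p was 0.48. Mlycd, which breaks down malonyl-CoA, ran from 107 to 124 CPM. Cpt2, the inner-membrane transferase, ran from 77.4 to 87.0 CPM. The carrier gene Slc25a20 (74.1 to 87.4 CPM) and the acetyl-carnitine enzyme Crat (115 to 130 CPM) were as narrow.

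**Figure D3:**
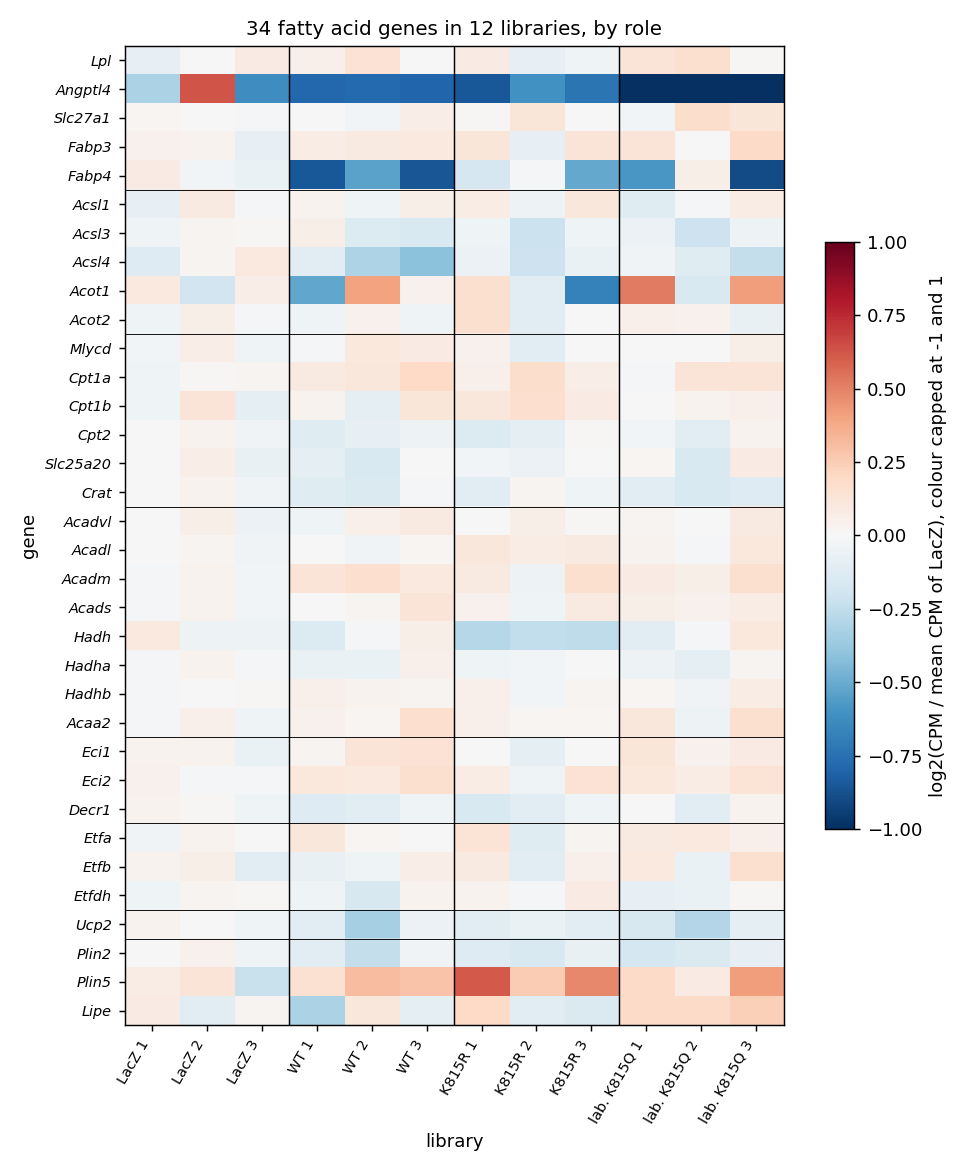
Log2 of each library's CPM over the LacZ mean, for 34 genes in rows grouped by role and 12 libraries in columns. The rows of Angptl4, Fabp4, Acot1 and Plin5 carry most of the colour, and the rows of the carnitine shuttle, the beta-oxidation cycle and electron transfer are pale apart from Hadh in K815R.

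The beta-oxidation cycle shortens acyl-CoA by repeated dehydrogenation, hydration, dehydrogenation and thiolysis, and 1 of its 8 genes was called. Hadh encodes the short-chain hydroxyacyl-CoA dehydrogenase of the matrix. It held 45.3, 41.0 and 40.8 CPM in LacZ, 38.6, 41.7 and 44.2 in WT, 34.9, 35.7 and 35.5 with K815R, and 39.5, 42.0 and 45.7 with the K815Q label. All 3 K815R libraries lay below each of the other 9. From LacZ to K815R, Hadh fell by 0.26 on the log2 scale (SE 0.0664, adjusted p = 0.034, edgeR's quasi-likelihood test), and DESeq2 gave 0.0273. K815R against WT gave -0.23 (adjusted p = 0.0763) and K815R against the group labelled K815Q gave -0.26 (0.0929), neither called. The call against LacZ held without LacZ replicate 3 and was lost without any other 1 of the 6 libraries, where values ran from -0.28 to -0.21. The summed level of the cardiomyocyte markers was 44670 to 45830 CPM in K815R and 40200 to 43370 in the other groups. The 8 markers did not all move with that sum. In K815R, 7 were higher than in LacZ, 4 than in WT and 5 than with the K815Q label. EdgeR's quasi-likelihood test called Myh7 and Nppa higher in K815R than in WT. The part of these markers in the level of Hadh was not tested.

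The other steps of the cycle did not share this pattern. Hadha and Hadhb encode the 2 subunits of the mitochondrial trifunctional protein, which handles long chains, and were among the steadiest genes. Hadha averaged 420 ± 8.10 CPM (SD, n = 3) in LacZ, 412 ± 19.0 in WT, 413 ± 5.48 in K815R and 410 ± 16.9 with the K815Q label. Hadhb averaged 405 ± 3.61, 416 ± 3.05, 410 ± 10.8 and 411 ± 15.2 CPM in the same order. The ratio of Hadha to Hadhb counts stayed between 0.958 and 1.06 over the 12 libraries.

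The acyl-CoA dehydrogenases open each turn of the cycle and differ in the chain length they prefer. Acadvl, for very long chains, ran from 175 to 194 CPM, Acads, for short chains, from 142 to 160. Acadl, for long chains, held 341, 345 and 332 CPM in LacZ and 367, 358 and 361 in K815R. Those groups did not overlap, and the difference of 0.09 on the log2 scale was not called. Acadm, for medium chains, held 196, 202 and 193 CPM in LacZ and 215, 221 and 211 in WT, again without overlap and with 0.13 on the log2 scale, not called. Acaa2, the thiolase, ran from 103 to 120 CPM. Echs1, the hydratase of the cycle, had 0 to 4 counts in 11 libraries and 86 in WT replicate 1, so no level is given for it.

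The 3 genes that prepare double bonds for oxidation, Eci1, Eci2 and Decr1, differed by -0.14 to 0.12 on the log2 scale. EdgeR's quasi-likelihood test and DESeq2 called 0 of their 18 tests, and 3 had an unadjusted p under 0.05. Eci1 held 99.0, 107 and 108 CPM in WT and 97.6, 90.7 and 97.0 in K815R, groups that did not overlap (-0.14, not called). Etfa, Etfb and Etfdh pass the electrons of the dehydrogenases to the respiratory chain and lay closest together, with all 18 differences between -0.06 and 0.09. Both tools called 0 of these 18, with 0 at an unadjusted p under 0.05. Etfb drew the most reads (219 to 263 CPM), and Etfdh had the widest difference, 0.09 between K815R and WT.

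Ucp2, a carrier of the inner mitochondrial membrane, held 467, 458 and 442 CPM in LacZ and 423, 362 and 438 in WT. It held 421, 436 and 424 in K815R and 407, 372 and 427 with the K815Q label. Every LacZ library lay above each of the other 9. The log2 fold changes against LacZ were -0.16, -0.09 and -0.18 (adjusted p = 0.144, 0.552 and 0.0742, edgeR's quasi-likelihood test), so none was called. DESeq2 called none either, and 2 of the 3 had an unadjusted p under 0.05. With no filter on low counts, Ucp2 was called in WT and with the K815Q label against LacZ, and not in K815R. Ucp3, the muscle form, had 0 to 3 counts a library.

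Plin2 and Plin5, both droplet coat genes, lay on opposite sides of LacZ, and neither was called. Plin2 encodes the droplet coat protein found in most cells, and held 153, 158 and 149 CPM in LacZ, 142, 130 and 149 in WT, 140, 138 and 145 with K815R, and 135, 138 and 145 with the K815Q label. K815R and the group labelled K815Q lay below all LacZ libraries, and WT overlapped LacZ. The differences of -0.12, -0.12 and -0.13 were not called (adjusted p = 0.191, 0.316 and 0.118, edgeR's quasi-likelihood test).

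Plin5, which ties droplets to mitochondria in oxidative tissue, held 2.01, 2.10 and 1.64 CPM in LacZ, 2.13, 2.38 and 2.33 in WT, 2.94, 2.29 and 2.68 with K815R, and 2.18, 2.03 and 2.55 with the K815Q label, from 40 to 59 counts each. WT and K815R lay above LacZ, and the value for K815R was 0.45 (95% interval 0.10 to 0.81, adjusted p = 0.201). The ratio of Plin5 to Plin2 counts was 0.0125 ± 0.00128 (SD, n = 3) in LacZ, 0.0163 ± 0.00176 in WT, 0.0187 ± 0.00220 in K815R and 0.0162 ± 0.00146 with the K815Q label. All 9 libraries of the KAT6A groups lay above the 3 of LacZ, where an exact two-sided permutation test gave p = 0.1 for each group, the smallest it can give (adjusted p = 0.48). Lipe, hormone-sensitive lipase, held 5.41, 4.72 and 5.21 CPM in LacZ, and 5.82, 5.84 and 6.04 with the K815Q label, without overlap (0.21, not called). Pnpla2, the lipase that acts before it, had 1 count in all 12 libraries together. No level is given for Pnpla2, and whether the annotation or the counting missed its reads was not tested.

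**Figure D4:**
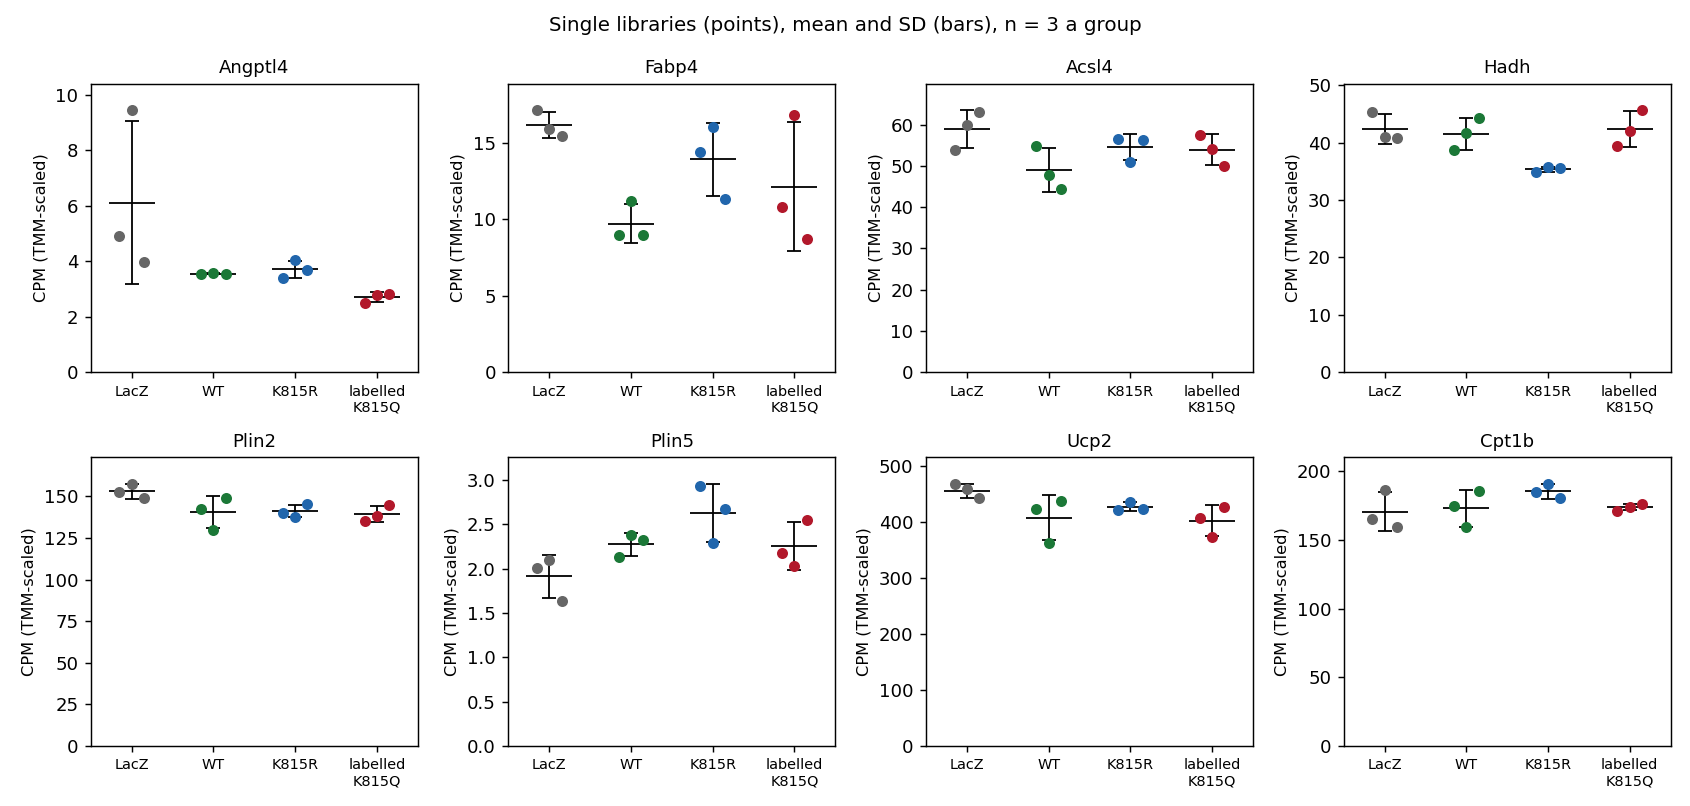
TMM-scaled CPM (y axis) of 8 genes in single libraries (points) of 4 groups, with bars for mean and SD, n = 3. Hadh in K815R (34.9 to 35.7) and Angptl4 with the K815Q label (2.495 to 2.81) sit below all other libraries, and every LacZ library of Ucp2 sits above the other 9.

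Groups that did not overlap were counted among these genes and over all genes tested. WT lay wholly above LacZ in 6 of the 34 genes and wholly below in 4, where each direction held 12.3% of all genes tested. K815R lay above LacZ in 3 (background 9.11%) and below in 4 (9.6%). The libraries labelled K815Q lay above LacZ in 6 (13.9%) and below in 5 (14.5%). K815R against WT gave 2 above (9.49%) and 2 below (9.48%). The libraries labelled K815Q against WT gave 1 above (9%) and 1 below (10.3%), and K815R against those libraries gave 2 above (8.28%) and 2 below (7.69%). Each of these counts between the KAT6A groups is a smaller share of the 34 genes than its background.

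Some libraries stood high or low for many of the genes at once. LacZ replicate 2 was the highest of its group in 21 of the 34 genes and LacZ replicate 3 the lowest in 22. WT replicate 3 was the highest of its group in 21, and the third library labelled K815Q in 24. K815R replicate 2 was the lowest of its group in 20. The median deviation of these libraries from their group ran from -0.04 to 0.06 on the log2 scale. The median SD within groups was 0.07 on that scale for the 34 genes, beside 0.11 over all genes tested.

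The surrounding pathway was read from 7 further lists, which hold 158 genes with 135 tested. WT against LacZ called 7 of the 135 (5.19%, beside 5.34% of all genes tested), and the group labelled K815Q against LacZ called 9 (6.67%, beside 7.85%). K815R against LacZ called 0 by edgeR's quasi-likelihood test (beside 2.47%), with 17 at an unadjusted p under 0.05, and DESeq2 called 1, Angptl8. K815R against WT called 5 (3.7%, beside 2.2%), the group labelled K815Q against WT called 4 (2.96%, beside 1.07%), and K815R against those libraries called 2 (1.48%, beside 0.363%). Prkaa2 is 1 of the calls in each comparison that made any.

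The list of PPAR and ERR regulators held no call. EdgeR's quasi-likelihood test and DESeq2 called 0 of its 20 genes in all 6 comparisons, with 13 of 120 tests at an unadjusted p under 0.05, beside 11.4% to 24.2% of all genes in the single comparisons. Ppara, the receptor that fatty acids activate in heart muscle, held 6.79, 8.60 and 8.16 CPM in LacZ and 9.23, 9.20 and 9.22 in WT. These groups did not overlap, and the difference of 0.23 was not called (adjusted p = 0.292). Ppard held 102 ± 4.75 CPM (SD, n = 3) in LacZ and 101 ± 3.48 with the K815Q label. Ppargc1a, which encodes PGC-1 alpha, held 26.2 ± 2.51, 27.4 ± 1.12, 24.3 ± 2.45 and 24.7 ± 3.05 CPM in the order LacZ, WT, K815R and labelled K815Q. Esrra held 150 ± 10.1, 151 ± 2.49, 147 ± 1.90 and 148 ± 3.77 CPM in that order, and Pparg stayed under 2 CPM.

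Malonyl-CoA and carnitine control had 15 tested genes, among them genes of enzymes that make malonyl-CoA. Acaca, the acetyl-CoA carboxylase that makes malonyl-CoA for lipid synthesis, held 45.9, 44.1 and 53.8 CPM in LacZ, 43.2, 43.1 and 46.0 in WT, 39.2, 45.8 and 41.1 with K815R, and 34.8, 38.4 and 36.0 with the K815Q label. All libraries labelled K815Q lay below every other library, and Acaca fell there by 0.40 against LacZ (adjusted p = 0.00172, edgeR's quasi-likelihood test), in each fit that left out 1 library as well. Acacb, the mitochondrial carboxylase that restrains Cpt1b, was not called in any of the 6 pairwise comparisons. DESeq2 called it for any difference among the 4 groups. Its mean was lowest in K815R, at 217 ± 5.65 CPM (SD, n = 3), close to 221 ± 17.0 with the K815Q label. WT held 250 ± 13.2 CPM, and K815R against WT gave -0.20 (adjusted p = 0.0725).

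Acss2, which activates acetate in the cytosol and nucleus, fell by 0.32 against LacZ in the group labelled K815Q, from 73.6 ± 6.04 to 58.8 ± 4.20 CPM (adjusted p = 0.0149, edgeR's quasi-likelihood test). This call was lost without LacZ replicate 2 or without the first or second library labelled K815Q (adjusted p up to 0.0827). Acss2 was also below all LacZ libraries in WT (-0.26, adjusted p = 0.0578), which DESeq2 called and edgeR's quasi-likelihood test did not. K815R overlapped LacZ (-0.13, adjusted p = 0.466). The group labelled K815Q overlapped WT and differed from it by -0.07 (adjusted p = 0.743). Pdk4, a kinase that shuts pyruvate out of oxidation and a PPAR target, held 6.79, 7.49 and 7.79 CPM in LacZ and 3.38, 6.15 and 5.89 with the K815Q label. It fell by 0.52 (adjusted p = 0.0349), and the call was lost without the first library labelled K815Q, where it fell by 0.29, without LacZ replicate 2 or 3, or in a model of just those 6 libraries. Slc25a29, a mitochondrial carrier of basic amino acids, rose by 0.37 (adjusted p = 0.0381). DESeq2 did not call Slc25a29, and 4 of the 6 fits that left out 1 library lost the call (adjusted p up to 0.175).

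Further mitochondrial oxidation had 27 tested genes, and Acad11, an acyl-CoA dehydrogenase, was its clearest. Acad11 held 10.3, 9.54 and 9.18 CPM in LacZ, 14.4, 13.7 and 14.5 in WT, 12.1, 10.8 and 9.95 with K815R, and 10.1, 10.3 and 10.8 with the K815Q label. The 3 WT libraries lay above all 9 others. Acad11 rose in WT against LacZ by 0.55 (adjusted p = 0.000479, edgeR's quasi-likelihood test), a call that held without any 1 of the 6 libraries. Against WT it was lower in K815R (-0.38, adjusted p = 0.0265) and with the K815Q label (-0.45, adjusted p = 0.0139). Of the 6 fits that left out 1 library, 1 called Acad11 in K815R against WT (adjusted p up to 0.142) and 3 with the K815Q label against WT (up to 0.0834). The other call of the list, Acat1, also counts as the only call of the ketone body list (9 tested), and was higher in WT, and with the K815Q label, than in LacZ.

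Further uptake and activation (19 tested) had calls in WT against LacZ for 2 genes, of a plasma lipase and of a regulator of such lipases. Lipg, endothelial lipase, averaged 1.00 ± 0.121 CPM (SD, n = 3) in LacZ and 0.368 ± 0.0907 in WT, a fall of 1.44 (adjusted p = 0.00928, edgeR's quasi-likelihood test) that was not called without WT replicate 3 (0.0588). Angptl8, which acts with its relatives on lipoprotein lipase, held 5.24, 8.91 and 5.74 CPM in LacZ and 4.56, 3.26 and 3.71 in WT. LacZ replicate 2 was the highest library for Angptl8 as it was for Angptl4. Angptl8 fell by 0.78 (adjusted p = 0.0325), or by 0.52 without that library, where the call was lost, as it was without WT replicate 2 or 3, with the replicate block and in a model of just those 6 libraries. Angptl8 was also below all LacZ libraries in K815R and with the K815Q label (-0.67 in each, adjusted p = 0.0951 and 0.0518). EdgeR's quasi-likelihood test called neither, while DESeq2 called Angptl8 against LacZ in WT, in K815R and with the K815Q label. The libraries labelled K815Q had lower Acot11, a thioesterase, and Acbd5, a peroxisomal acyl-CoA binding protein, than WT (-0.47 and -0.42, adjusted p = 0.0323 and 0.0456), and of the 6 fits that left out 1 library, 1 called Acot11 (adjusted p up to 0.189) and 0 called Acbd5 (up to 0.241). DESeq2 (0.0992) and a model of just those 6 libraries (0.0617) did not call Acbd5 either.

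Triglyceride synthesis and droplets had 27 tested genes with 8 calls over the 6 comparisons. Hsd17b11, a droplet dehydrogenase, rose against LacZ in WT (0.27, adjusted p = 0.0198) and with the K815Q label (0.31, adjusted p = 0.00852, edgeR's quasi-likelihood test). The WT call was lost without LacZ replicate 2 or 3 or WT replicate 1 or 2 (adjusted p up to 0.0921), and the other held without any 1 library. K815R also lay above all LacZ libraries for Hsd17b11, by 0.25, which was not called (adjusted p = 0.0506). K815R against WT gave -0.02 for this gene (adjusted p = 0.944). Lpin2, a phosphatidate phosphatase, was lower in WT (13.6 ± 0.490 CPM) than in LacZ (16.3 ± 1.06) and K815R (17.1 ± 0.361, SD, n = 3). Of the 6 fits that left out 1 library, 1 called Lpin2 against LacZ and 0 called it against K815R, and the call against LacZ (adjusted p = 0.0473) was also lost with DESeq2 (0.0995), with no filter on low counts (0.0529), with the replicate block (0.0545) and in a model of just those 6 libraries (0.081). K815R had higher Cidea than WT (0.28, adjusted p = 0.0406), a call that 1 of the 6 fits without 1 library kept (adjusted p up to 0.195). It had lower Fitm1, which promotes droplet formation in muscle. Fitm1 held 41.4, 33.3 and 35.7 CPM in LacZ, 39.6, 40.0 and 41.2 CPM in WT, 32.9, 34.3 and 33.2 with K815R, and 41.5, 41.1 and 41.9 with the K815Q label. K815R overlapped LacZ (-0.14, adjusted p = 0.391, not called). The other K815R differences were -0.26 against WT and -0.31 against the group labelled K815Q (adjusted p = 0.0421 and 0.0463), and neither was called in a fit that left out 1 of the 6 libraries. Peroxisomal oxidation had 19 tested genes, whose median log2 fold change against LacZ was 0.0648 in WT, 0.00724 in K815R and 0.0619 with the K815Q label, beside 0.00868, 0.00337 and 0.00646 over all genes tested.

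**Figure D5:**
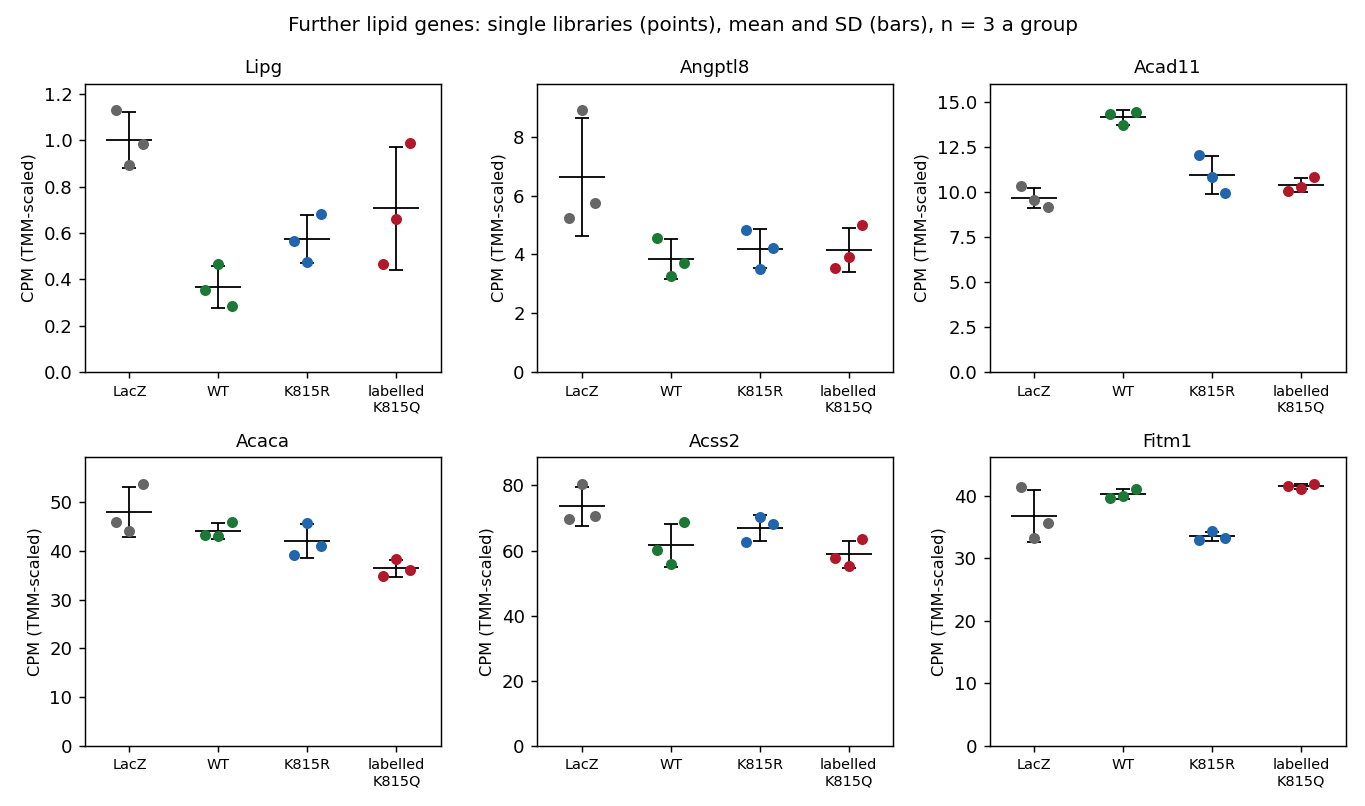
TMM-scaled CPM (y axis) of 6 genes called in at least 1 comparison and outside the 34, in single libraries (points) of 4 groups with bars for mean and SD, n = 3. Acad11 is highest in WT (13.7 to 14.5), Acaca lowest in the group labelled K815Q (34.8 to 38.4) and Fitm1 in K815R (32.9 to 34.3) is below WT and overlaps LacZ.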

How the data were processed

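Raw read counts per gene were deposited by the authors as 1 table; its unit is the count. Per the submitters' processing notes, Trimmomatic 0.39, HISAT2 2.2.1, HTSeq 0.6.1, edgeR and the build Rnor_6.0 were used; the annotation release and strand setting are not given in the sources used here. The labels describe a directional, paired-end library kit and a single-read run. The table's 5 counter lines, such as reads in no feature (11.7% to 12.9% of reads) and reads aligned to more than 1 place (25.6% to 26.9%), stayed out of library sizes and tests, so a gene with a close copy keeps only its uniquely placed reads.

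Groups and replicate numbers came from the sample titles. Counts were TMM-scaled and filtered with filterByExpr (minimum count 10, minimum total 15), and 14063 of 32883 genes were tested in 1 fit of 12 libraries (edgeR 4.0.16 under R 4.3.3, robust quasi-likelihood fit and test). Adjustment was by Benjamini-Hochberg over all genes tested. A count of 3 corresponds to 0.118 to 0.156 CPM. The alternatives were RLE scaling, no filter, DESeq2 1.42.0, a replicate block, fits of the 6 libraries compared and leaving out each library. The procedure was tested on simulated data.

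The genes and lists were chosen with earlier results of these data known. Named genes are those called, the gene with the most reads and the widest-changing gene of each role, a panel of regulators, and up to 6 called genes of the further lists a comparison. Genes given in addition were chosen after their values were seen. Not every result covered by this rule is reported here. Promoter sequences are from RefSeq (GRCr8), matched by symbol.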

Additional observations from a re-analysis of the deposited data

How the results depend on the processing

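The alternatives followed a chosen set of gene values. These were the called differences of named genes outside the 34, the larger differences of Angptl4, Acsl4 and Hadh, and the widest difference of each role. Fabp4, Plin5, Plin2 and Ucp2 against LacZ were followed as well. Other differences, among them most of those near 0, were not followed. Of the values followed, none changed direction under any alternative run: 519 kept their side of the threshold, 95 lost a call and 13 gained one. Of the counts of called genes among the 34, 53 stayed within 1.5 times and 29 did not, since most of these counts are 0 or 1. With no filter on low counts, WT against LacZ called 2 of the 34 genes, the libraries labelled K815Q against LacZ 2, K815R against WT 1, K815R against the libraries labelled K815Q 1, and any difference 3. DESeq2 called 3 in WT against LacZ and 2 for any difference. A fit of only the 6 libraries compared called 0 in the libraries labelled K815Q against LacZ. RLE scaling moved no count. Leaving out 1 library gave 0 to 1 calls for WT against LacZ, 0 to 2 for K815R against LacZ, 0 to 1 for the libraries labelled K815Q against LacZ, 0 to 2 for any difference, and 0 for the comparisons between KAT6A groups. The cause of these changes was not tested.

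The replicate numbers gave no clear pairing over all 4 groups. The 18 same-number pairs had correlations of deviations between -0.127 and 0.122, beside -0.129 to 0.145 for the 36 pairs of different number. Of the 18, 1 was over 0.1, and 5 of 12 libraries correlated best with their own number. Same-number pairs among the KAT6A groups were all above 0 (0.000193 to 0.122), and most of those with LacZ were below 0. Whether the KAT6A groups share a batch by replicate number was not tested. With the replicate block, 3 genes were called in WT against LacZ (Angptl4, Fabp4 and Acsl4), 2 in the libraries labelled K815Q against LacZ (Angptl4 and Fabp4) and 3 for any difference.

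Depth limits Acot1, Plin5 and Angptl4, which had 7 to 14, 40 to 59 and 48 to 212 counts a library, and no comparison is given for Cd36, Echs1, Pnpla2, Ucp3 and Slc27a6. Over all genes, the calls for any difference were 2036 without a filter, beside 1143.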
